A study of Mus musculus with 18 samples.

Results

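The adaptor genes described here are 10 genes for proteins that work next to the T cell receptor (TCR) of iNKT cells, namely Themis, Lat, Lat2, Lcp2, Grap2, Sh2d2a, Sla, Sla2, Pag1 and Lax1, out of 23337 genes in the count table. They were picked by symbol as TCR adaptors after earlier results of the same libraries were known. For that reason the values that had already been singled out (Themis and Lat2 in SKG against WT NKT1, and Lat2 and Pag1 in WT NKT1 against the other WT subsets) are given as descriptions with no p-value. Invariant natural killer T (iNKT) cells are T cells that carry an invariant TCR α chain and recognize glycolipids presented by CD1d, and 3 subsets were sorted from the thymus. NKT1 cells were gated as positive for the CD1d-αGC tetramer (CD1d loaded with the glycolipid α-galactosylceramide), ICOS lo and CD49a+, NKT2 cells as CD49-, Sdc-1-, ICOS hi, CD4 hi and TCRβ hi, and NKT17 cells as CD49-, ICOS hi and Sdc-1+. Each subset came from WT mice on the BALB/c background and from SKG mice, which carry a spontaneous point mutation that weakens the TCR kinase ZAP70 in every cell that uses it. According to the study's methods, both kinds of mice were F3 offspring bred separately from a cross of BALB/cJ with SKG mice, so other differences between the lines cannot be told apart from the mutation. The age and sex of the mice, and whether thymi were pooled, are not given in the sources used here. There were 3 libraries in each of 6 groups, 18 in all, with 4391029 to 8895917 counts each, and 11118 genes passed the filter on low counts, the 10 adaptor genes among them.

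A receptor that binds its ligand is phosphorylated by Lck, recruits ZAP70, and ZAP70 in turn phosphorylates the membrane adaptor LAT and the cytosolic adaptor SLP-76 (encoded by Lcp2), which GADS (encoded by Grap2) holds together. This platform brings in the enzymes that start calcium and Ras signalling. Themis is a T lineage protein that acts near LAT and is needed for normal positive selection of thymocytes, in which it is abundant. Other members restrain or reroute the signal: SLAP (Sla) and SLAP-2 (Sla2) promote loss of receptor complexes, PAG (Pag1) keeps the inhibitory kinase Csk at the membrane, and LAX (Lax1) is a membrane adaptor that dampens antigen receptor signalling. LAT2 (Lat2, also known as NTAL or LAB) is a relative of LAT best known from B cells, mast cells and natural killer cells, and TSAd (Sh2d2a) is an SH2 adaptor that binds Lck.

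The labelled subsets largely matched their markers. All of 6 NKT1 genes (Tbx21 and Ifng among them) passed the call as higher in NKT1 cells than in either other subset, in both genotypes, and each of 5 NKT17 genes (Il23r and Ccr6 among them) was called higher in NKT17 than in the other subsets. Of 6 NKT2 genes, 5 were called higher in NKT2 than in NKT1 cells of each genotype, but only 2 in WT and 3 in SKG were called higher in NKT2 than in NKT17 cells, and Icos, Cd4 and the NKT17 gene Sdc1 encode proteins used for the sort. The markers also differed between genotypes within a subset. In NKT17 cells Ccr6 was at 12.0 ± 7.57 CPM in WT and 592 ± 26.4 in SKG, Il23r at 454 ± 2.85 and 245 ± 7.69, and Il1r1 at 467 ± 36.3 and 233 ± 15.3, all 3 called. In NKT2 cells Gata3, Icos, Il2rb and Klrd1 were called lower in SKG, in NKT1 cells Il4 was called higher, and in NKT17 cells Il17rb and Klrd1 were also called higher and Il4 and Il2rb lower. Their part in the SKG differences of the adaptor genes was not tested. In what follows, a level is CPM (read counts scaled to a common library size) after TMM scaling of library sizes, and a gene was called when its edgeR quasi-likelihood p, adjusted by the Benjamini-Hochberg method over all 11118 genes, was under 0.1 and its fold change was at least 1.5. These are bulk libraries, in which more cells that express a gene and more RNA of that gene per cell cannot be told apart.

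Per kilobase of exon, which allows genes to be compared, Lat was the highest adaptor in every group, from 351 ± 21.7 CPM per kilobase (SD, n = 3) in WT NKT1 to 781 ± 73.7 in SKG NKT17. Lax1, Lcp2 and Sh2d2a followed in every group, at means between 95.0 and 290.4 CPM per kilobase, with Sla and Sla2 below them. Grap2 and Pag1 stayed under 10 CPM per kilobase in all 6 groups. Themis and Lat2 changed place: Themis was the lowest of the 10 in WT NKT1 (0.0131 ± 0.0226 CPM per kilobase) and in SKG NKT1 (2.13 ± 0.393), whereas Lat2 was the lowest in the other 4 groups, at 0.138 to 0.463.

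**Figure D1:**
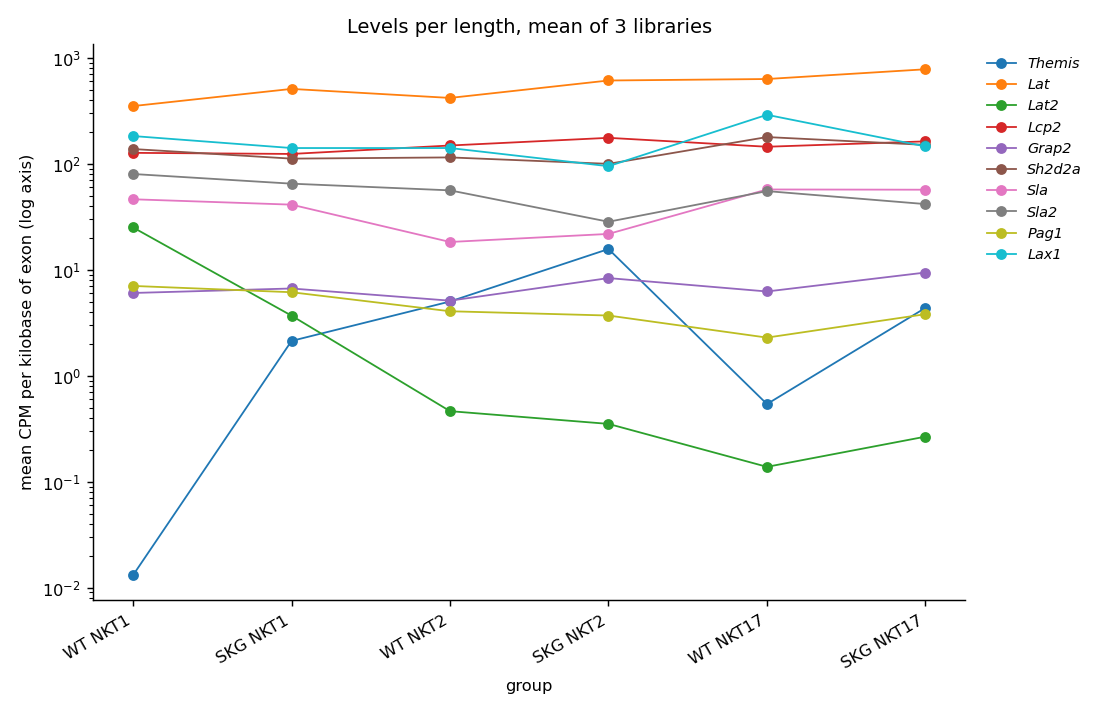
Mean level of each of the 10 adaptor genes per group, as CPM per kilobase of exon on a log axis (mean of 3 libraries; colours are genes, and lines only join points of 1 gene). Lat is on top in every group, and Themis and Lat2 span the widest range, with Themis at 0.0131 in WT NKT1 and 15.7 in SKG NKT2 and Lat2 at 25.1 in WT NKT1 and 0.138 in WT NKT17.

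To ask what the weakened kinase was accompanied by in cells of the same sorted phenotype, SKG was compared with WT within each subset. In NKT1 cells the 2 members past the call were Themis (higher) and Lat2 (lower), with 3.27% of all tested genes called, and since both values were known when the genes were picked, nothing is read from that count. In NKT2 cells 2 were called (Themis higher and Sla2 lower), with 7.95% of all genes, and in NKT17 cells 3 were called (Themis and Pag1 higher, Lax1 lower), with 8.37% of all genes. The WT values of Pag1 were known when the genes were picked, so nothing is read from the NKT17 count. The median log2 fold change of the members was -0.18, 0.05 and 0.24 in NKT1, NKT2 and NKT17 cells, beside medians over all genes that lay within 0.01 of 0. Members whose SKG and WT libraries did not overlap numbered 6 in NKT1 (16.3% of all genes; Themis and Lat2 are among the 6), 6 in NKT2 (30.1%) and 7 in NKT17 cells (26.9%). The adaptors did not lie on 1 side as a block: in NKT1 cells 3 had the higher mean in SKG and 7 the lower, in NKT2 cells 5 and 5, and in NKT17 cells 6 and 4.

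**Figure D2:**
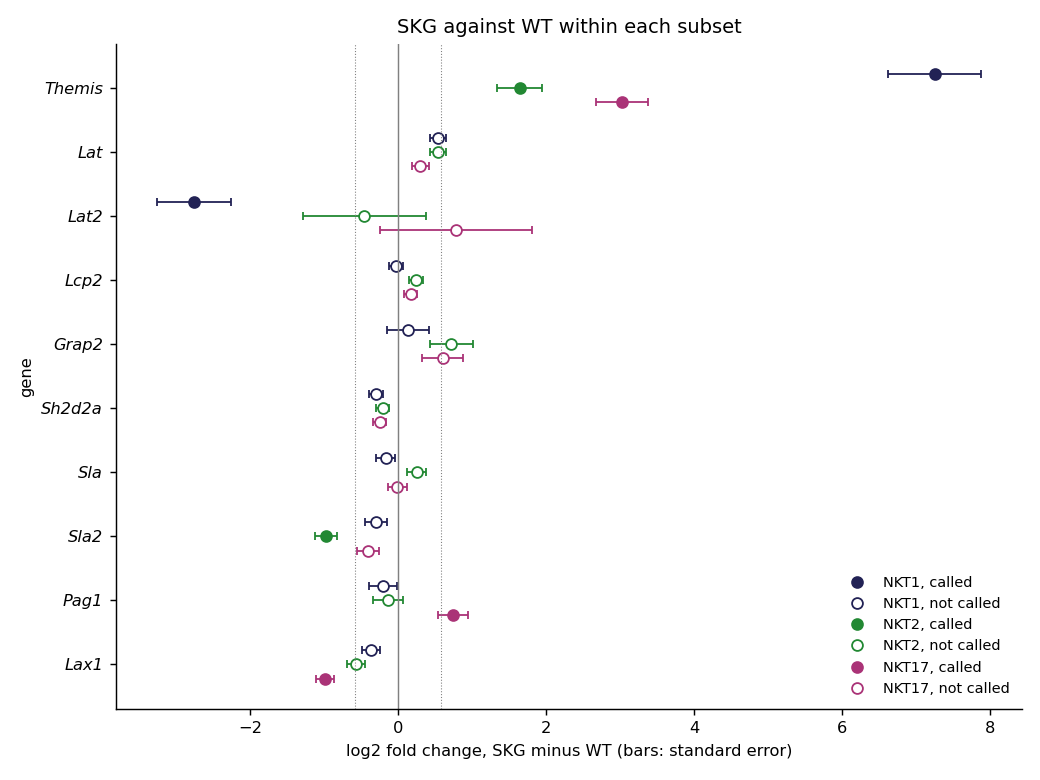
Log2 fold change of SKG against WT for each adaptor gene (rows), with standard errors as bars, in NKT1 (dark blue), NKT2 (green) and NKT17 (magenta) cells. Filled points passed the call and dotted lines mark a fold change of 1.5. Themis is right of the line in all 3 subsets, at 1.64 in NKT2 and 3.02 in NKT17, and its NKT1 value rests on 2 counts in WT.

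Themis was higher in every SKG library than in the WT libraries of its subset, and it was called in NKT2 and NKT17 cells. Its NKT1 values are a description. In WT NKT1 cells it was at 0, 0 and 0.354 CPM (0, 0 and 2 reads), and in SKG NKT1 cells at 17.7, 23.3 and 16.8 CPM. With 304 reads over the SKG and 2 over the WT libraries, the ratio of pooled CPM was 183, with an exact 95% counting interval of 50.1 to 1514. The SKG libraries were thus all far above WT, but the size of that ratio is loosely fixed because WT NKT1 was nearly empty of Themis reads.

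In NKT2 cells Themis was at 40.3, 37.0 and 58.7 CPM in WT and at 135, 159.9 and 129 CPM in SKG (log2 fold change 1.64 with SE 0.30, edgeR adjusted p 0.00102). In NKT17 cells it was at 2.93, 8.69 and 3.02 CPM in WT and at 30.7, 51.1 and 36.4 CPM in SKG (log2 fold change 3.02 with SE 0.35, edgeR adjusted p 8.51e-06). No WT library reached an SKG library of the same subset. The group means fell in the order SKG NKT2 (141 ± 16.5 CPM), WT NKT2 (45.3 ± 11.7), SKG NKT17 (39.4 ± 10.5), SKG NKT1 (19.3 ± 3.55), WT NKT17 (4.88 ± 3.30) and WT NKT1 (0.118 ± 0.205), and of these neighbours only WT NKT2 and SKG NKT17 overlapped. In WT NKT17, replicate 2 stood above the other libraries of its group.

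Because Themis is abundant in double-positive thymocytes (the stage before selection, with CD4 and CD8 together), genes of such cells were read beside it. Over all 18 libraries Rag1 and Rag2, which those cells need for receptor rearrangement, had 1 read each, while Cd8a had 216 and Cd8b1 had 685. The summed CPM of 8 double-positive genes (Rag1, Rag2, Dntt, Cd8a, Cd8b1, Ptcra, Arpp21 and Aqp11) was 14.7 to 47.9 in SKG NKT17 against 6.25 to 12.5 in WT NKT17. In NKT2 cells it was 4.62 to 5.62 in SKG and 2.25 to 2.45 in WT. In NKT1 cells the sum went the other way, at 2.71 to 5.76 in SKG and 6.28 to 18.4 in WT. Cd8b1 was the largest part of the sum in NKT17 cells (6.54 ± 5.05 CPM in WT, 22.5 ± 12.7 in SKG). The same held in NKT2 cells (1.2 ± 0.201 CPM in WT, 3.65 ± 0.695 in SKG). In NKT1 cells Cd8a was at 4.67 ± 4.55 CPM in WT and 0.27 ± 0.321 in SKG, and Aqp11 at 3.53 ± 1.06 and 1.99 ± 2.46. Of the 3 genes of the list that were tested, Cd8b1 was called higher in SKG NKT17 cells and none was called in the other subsets. Within SKG NKT17 the library with the most Themis (replicate 2) had the smallest double-positive sum, and the one with the least Themis (replicate 1) the largest. In SKG NKT1, replicate 2 likewise had the most Themis and the smallest sum. In WT NKT17, replicate 2 had both the most Themis (8.69 CPM) and the largest sum (12.5 CPM). In WT NKT1, replicate 3 held the only Themis reads and the largest sum (18.4 CPM). In both NKT2 groups the library with the most Themis had the middle sum.

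A list of 5 genes of naive-type T cells (Ccr7, S1pr1, Klf2, Satb1 and Lef1) summed to 1429 to 1489 CPM in SKG NKT2 against 874 to 1214 in WT NKT2, and was likewise apart in NKT17 cells (387 to 464 CPM in SKG, 276 to 362 in WT). In NKT1 cells its ranges overlapped (682 to 936 in SKG, 338 to 799.6 in WT). Of the 5 genes, 1 was called higher (S1pr1) in SKG NKT1, 1 higher (Satb1) and 1 lower (Lef1) in SKG NKT2, and 3 higher (Ccr7, Klf2 and S1pr1) and 1 lower (Lef1) in SKG NKT17 cells. The part of either list in the Themis difference was not tested.

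**Figure D3:**
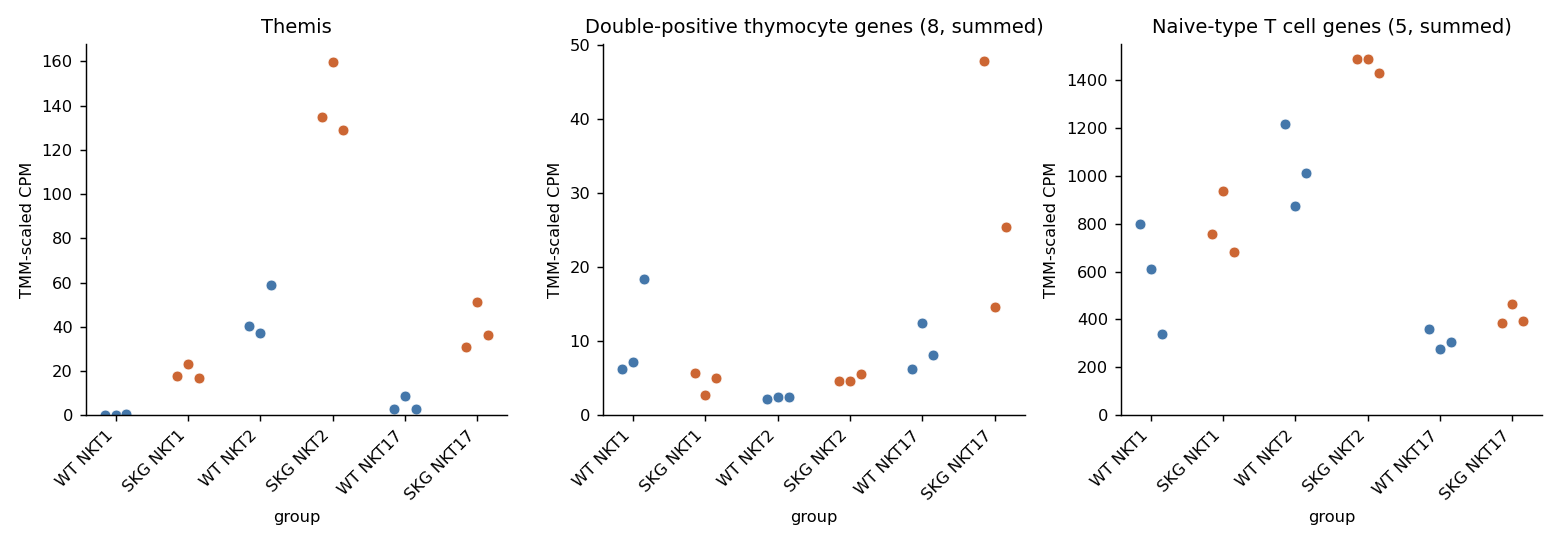
Themis, the sum of 8 double-positive thymocyte genes and the sum of 5 naive-type T cell genes in each library, as TMM-scaled CPM (WT blue, SKG orange, 3 libraries a group). Themis is higher in SKG in all 3 subsets. The double-positive sum is higher in SKG than in WT in NKT2 (4.62 to 5.62 against 2.25 to 2.45) and NKT17 cells (14.7 to 47.9 against 6.25 to 12.5). Cd8b1 is its largest part in these subsets. In NKT1 cells the double-positive sum is lower in SKG (at most 5.76) than in WT (at least 6.28).

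None of the platform genes Lat, Lcp2 and Grap2 was called between SKG and WT. Lat, the membrane scaffold, was at 425, 415 and 465 CPM in WT NKT1 and at 619, 604 and 672 CPM in SKG NKT1 (log2 fold change 0.54 with SE 0.11, edgeR adjusted p 0.00479). In NKT2 cells it was at 479, 542 and 537 CPM in WT and at 753, 720.4 and 800 CPM in SKG (log2 fold change 0.54 with SE 0.11, edgeR adjusted p 0.00143). Both differences passed the p threshold with no overlap of libraries, but they were short of the fold change of 1.5 and so were not called. In NKT17 cells the libraries overlapped (694, 914 and 742 CPM in WT, 983, 869 and 1049.9 in SKG; log2 fold change 0.30 with SE 0.11, edgeR adjusted p 0.0775). The call turned on single libraries, since the NKT1 difference passed when WT NKT1 replicate 3 was left out (0.60, edgeR adjusted p 0.00672) and the NKT2 difference when WT NKT2 replicate 2 (0.59, edgeR adjusted p 0.00373) was, or SKG NKT2 replicate 2 (0.59, edgeR adjusted p 0.00341).

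Lcp2, which encodes SLP-76, was called in no comparison of this study design. It was at 519 to 624 CPM in WT NKT1 and 529.7 to 569 in SKG NKT1, at 642 to 699 in WT NKT2 and 696 to 845 in SKG NKT2, and from 607 to 668 CPM in NKT17 cells of WT mice and 692 to 746 in those of SKG mice. Only the NKT17 ranges were apart (log2 fold change 0.17 with SE 0.09, edgeR adjusted p 0.330). Grap2, which encodes the linker GADS between LAT and SLP-76, was low, at means of 16.1 to 29.8 CPM. It was at 10.3 to 29.0 CPM in WT NKT1 and 16.7 to 25.8 in SKG NKT1. Its libraries were at 21.3, 14.5 and 12.6 CPM in WT NKT2 and 24.4, 27.4 and 27.3 in SKG NKT2 (log2 fold change 0.72 with SE 0.29, edgeR adjusted p 0.141), and at 20.5, 20.5 and 18.1 CPM in WT NKT17 and 31.6, 26.2 and 31.5 in SKG NKT17 (0.60, SE 0.28, edgeR adjusted p 0.221). The ranges were apart in both subsets, yet neither difference passed the test over all genes. The NKT2 difference was called without WT NKT2 replicate 1 (0.96, edgeR adjusted p 0.0777), and both were called in a fit of only the libraries compared (0.73 and 0.59, edgeR adjusted p 0.0607 and 0.0903).

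Lat2, the relative of LAT, was a gene of NKT1 cells in these libraries. It was at 61.0, 24.3 and 28.2 CPM in WT NKT1 and at 5.76, 4.17 and 6.76 CPM in SKG NKT1, a fitted change of -2.76 on the log2 scale (SE 0.50), with the lowest WT library above the highest SKG library. In the other 4 groups no library passed 1.10 CPM and each group held 4 to 12 reads, so that SKG and WT could not be told apart there at this depth. Per kilobase, the ratio of Lat to Lat2 was 16.4 ± 6.90 (SD, n = 3) in WT NKT1 and 142 ± 29.6 in SKG NKT1.

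Genes of other cells that use LAT2 were read beside it. Of the defining B cell genes read here, Ms4a1 had 3 reads over all 18 libraries and Cd79a had 41. The sum of 6 B cell genes was 1.24 to 2.41 CPM in WT NKT1 and 2.95 to 5.95 in SKG NKT1, and that of 8 myeloid and mast cell genes was 0.764 to 10.3 CPM in WT NKT1 and 0.520 to 1.67 in SKG NKT1. The B cell sum in NKT1 cells was nearly all Cd79b (1.62 ± 0.636 CPM in WT, 4.51 ± 1.38 in SKG), while Cd79a was at 0.239 ± 0.207 and 0.124 ± 0.215 CPM and Pax5, Ebf1 and Ly6d had no read. The myeloid ranges overlapped. No separate list of natural killer cell genes was read. The natural killer receptor gene Klra7 was at a mean of 188 CPM in WT NKT1 and 11.1 in SKG NKT1. Klrd1, on the NKT1 list, was at 594 ± 114 and 358 ± 26.5 CPM and was not called. The study reports lower expression of most natural killer receptor genes in SKG NKT1 cells. The part of other cells in the Lat2 difference was not tested.

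Sh2d2a, Sla2 and Lax1, 3 members in all, had every SKG library under every WT library in all 3 subsets, a pattern that 1.39% of all tested genes shared. Themis had the opposite pattern, which contains its known NKT1 values, and the share of all genes with that pattern is not given here. The size of the difference varied among the 3 members. Sh2d2a, the Lck-binding adaptor, was at 654 ± 27.7 CPM in WT and 531 ± 30.6 in SKG NKT1, at 549 ± 39.2 and 476 ± 25.2 in NKT2, and at 853 ± 51.5 and 717 ± 41.7 in NKT17 cells. None of its differences was called (log2 fold changes -0.30, -0.21 and -0.25, SE 0.09 each, edgeR adjusted p 0.0785, 0.185 and 0.0890).

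Lax1 was called lower in NKT17 cells, where it was at 689.9, 735 and 641 CPM in WT and at 369, 311 and 362 CPM in SKG (log2 fold change -0.99 with SE 0.12, edgeR adjusted p 8.22e-06). The 3 SKG libraries were all under the lowest WT library by a wide margin. In NKT2 cells it was at 352, 353 and 299 CPM in WT and at 253, 197 and 225 CPM in SKG, short of the fold change needed (-0.57, SE 0.12, edgeR adjusted p 0.00332). This difference was called under upper-quartile scaling (-0.59, edgeR adjusted p 0.00288), on leaving out SKG NKT2 replicate 1 (-0.66, edgeR adjusted p 0.00361) and on leaving out WT NKT2 replicate 3 (-0.63, edgeR adjusted p 0.00449). In NKT1 cells it was at 399, 411 and 491 CPM in WT and at 324, 295 and 385 CPM in SKG, and the test was not passed (-0.37, SE 0.12, edgeR adjusted p 0.115). The ratio of Lat to Lax1 per kilobase was higher in every SKG library than in the WT libraries of its subset, at 1.93 ± 0.113 in WT and 3.64 ± 0.290 in SKG NKT1, 3.00 ± 0.421 and 6.49 ± 0.708 in NKT2, and 2.17 ± 0.230 and 5.33 ± 0.230 in NKT17 cells. Of other ratios read, Lat to Lcp2 overlapped between genotypes in NKT17 cells only (4.0 to 4.93 in WT, 4.52 to 5.06 in SKG). Sla to Sla2 overlapped in NKT1 cells only (0.518 to 0.637 in WT, 0.495 to 0.79 in SKG).

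Sla2 fell in NKT2 cells, from 205, 172 and 145 CPM in WT to 85.7, 85.2 and 92.8 CPM in SKG (log2 fold change -0.98 with SE 0.15, edgeR adjusted p 0.000115). The SKG NKT2 libraries were the lowest of all 18. In NKT1 cells the values were 293, 232 and 221 CPM in WT and 207, 211 and 187 in SKG (-0.30, SE 0.15, edgeR adjusted p 0.357), and in NKT17 cells 205, 162 and 148 CPM in WT and 139.8, 106 and 142 in SKG (-0.41, SE 0.15, edgeR adjusted p 0.0946). Neither was called, and the highest SKG values lay only just under the lowest WT values. Its relative Sla had ranges that overlapped between SKG and WT in all 3 subsets, with group means of 168 to 526 CPM. Sla2 overlaps 1110008F13Rik on the opposite strand, a gene at 31.2 to 61.5 CPM, and with the strand setting of the counting not given, reads in the overlap cannot be told apart.

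Pag1, the anchor of Csk, was higher in SKG than in WT NKT17 cells, at 39.8, 35.4 and 34.3 CPM against 23.0, 17.7 and 25.0 (log2 fold change 0.74 with SE 0.20), with no overlap. The WT values of Pag1 were known when the genes were picked, so this difference is a description with no p. In NKT2 cells the Pag1 libraries overlapped (35.0 to 45.6 CPM in WT, 32.4 to 39.2 in SKG), as they did in NKT1 cells (48.7 to 88.5 and 56.7 to 62.2). WT NKT1 replicate 1, at 88.5 CPM, stood above the rest of its group.

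**Figure D4:**
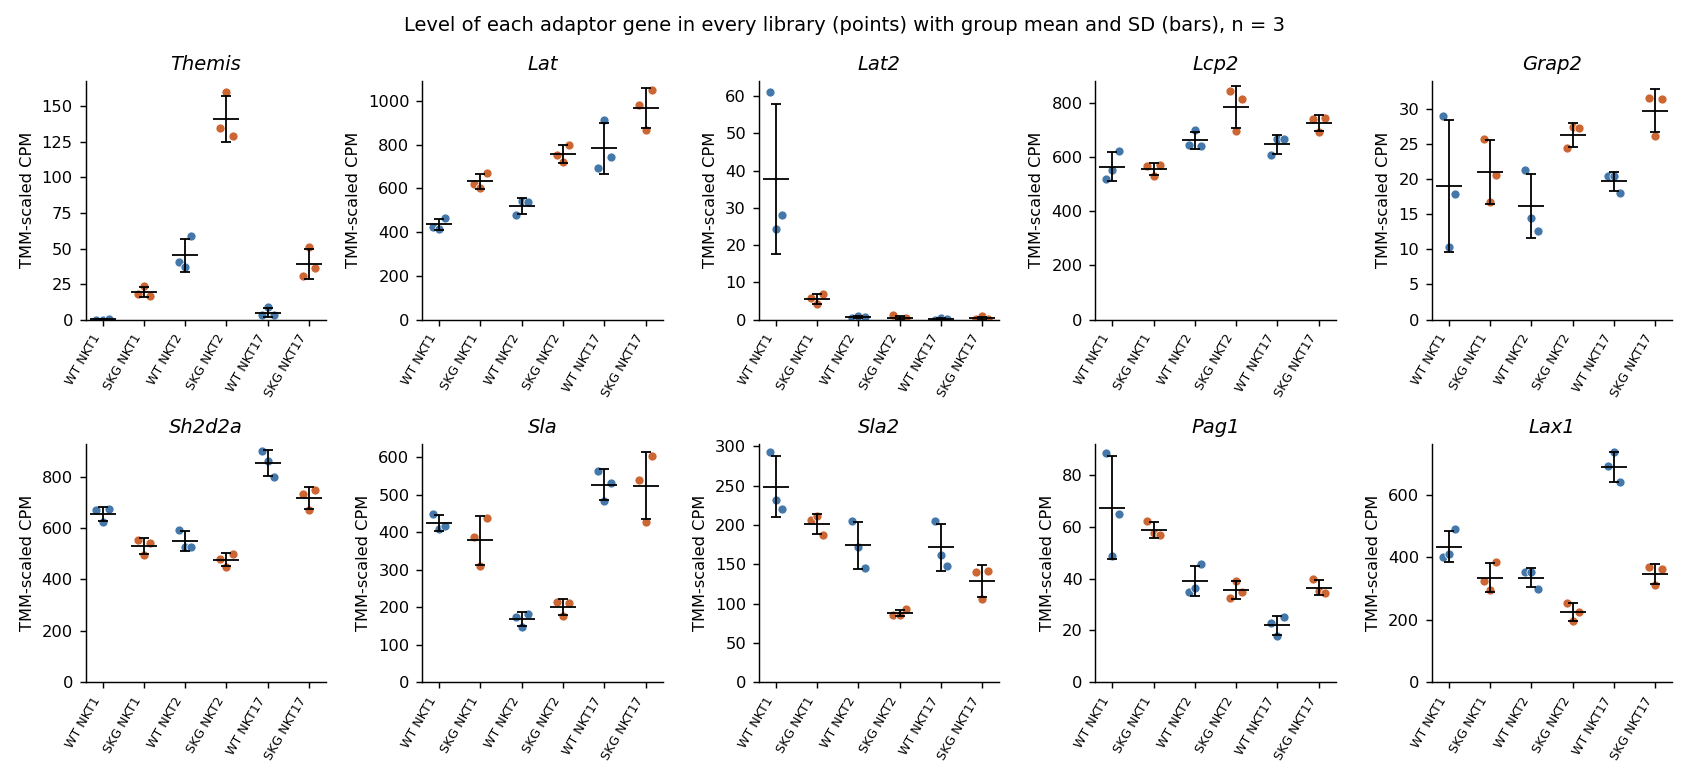
Level of each of the 10 adaptor genes in every library (points; WT blue, SKG orange) with the group mean and SD (black), as TMM-scaled CPM. Each panel has its own axis from 0. Sh2d2a, Sla2 and Lax1 have all SKG points under the WT points of the same subset, and Themis has them above.

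The difference between SKG and WT was then compared between subsets by an interaction contrast, in which a negative value means that the first subset named had the lower (or more negative) change. Against NKT1, 2 members were called in NKT2 cells (Themis and Sla2, with 3.87% of all genes called) and 3 in NKT17 cells (Themis, Pag1 and Lax1, with 4.17%), and none was called between NKT17 and NKT2 cells (2.19%), where 4 members had an unadjusted p under 0.05. The contrasts of Themis, Lat2 and Pag1 against NKT1 contain values that were known when the genes were picked, so they are given with no p and nothing is read from their calls. On the fitted log2 scale the Themis change was -5.61 (SE 0.79) in NKT2 minus NKT1 cells and -4.23 (SE 0.88) in NKT17 minus NKT1 cells. Both rest on the 2 WT NKT1 reads and are not bounds. Between NKT17 and NKT2 cells the Themis change did not pass (1.38, SE 0.45, edgeR adjusted p 0.186), but it did without WT NKT17 replicate 2 (2.07, edgeR adjusted p 0.00849) and with DESeq2 (1.38, DESeq2 adjusted p 0.0462).

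The Sla2 change was more negative in NKT2 than in NKT1 cells (-0.68, SE 0.21, edgeR adjusted p 0.0927). That call was lost on leaving out any of 10 of the 12 libraries involved, with adjusted p-values up to 0.229, the exceptions being WT NKT2 replicate 3 and WT NKT1 replicate 1. The Lax1 change was more negative in NKT17 than in NKT1 cells (-0.61, SE 0.17, edgeR adjusted p 0.0571), and this was lost without WT NKT1 replicate 1 (-0.58), WT NKT1 replicate 2 (-0.58), SKG NKT17 replicate 2 (-0.54) or SKG NKT1 replicate 3 (-0.53). The Pag1 change in NKT17 minus NKT1 cells was 0.94 (SE 0.27), and its call was lost on leaving out any of 8 of 12 libraries (0.66 without WT NKT1 replicate 1), the exceptions being WT NKT1 replicates 2 and 3, WT NKT17 replicate 3 and SKG NKT17 replicate 2. It was also lost in a fit of only the libraries compared. The Lat2 change was not called between NKT17 and NKT1 cells (3.54, SE 1.18), but it was with DESeq2 (3.58) and without WT NKT1 replicate 2 (3.77).

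The same genes were compared between the subsets of each genotype, since the study asked whether TCR signalling genes differ among subsets. In WT cells 4 members were called between NKT1 and NKT2 (27.5% of all genes), 5 between NKT1 and NKT17 (24.7%) and 6 between NKT17 and NKT2 (20.0%). Themis, Lat2 and Pag1, whose WT NKT1 values were known beforehand, are among the 4 and among the 5. Pag1 is also among the 6, and nothing is read from these counts. In SKG cells the numbers were 5 (18.7% of all genes), 5 (22.8%) and 4 (18.8%). Themis and Lat2, whose SKG NKT1 values were known beforehand, are among the 5 of both comparisons with NKT1. Nothing is read from those counts either. The comparisons within a genotype share libraries, so their values are set side by side only.

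By fitted values, Themis differed more between the subsets in WT than in SKG cells. Against NKT1 this rests on 2 WT NKT1 reads and on values that were known beforehand. Between NKT17 and NKT2 the interaction did not pass in the main fit (1.38, SE 0.45, edgeR adjusted p 0.186). In WT cells NKT2 exceeded NKT1 by a pooled ratio of 440.3 (exact 95% counting interval 121 to 3642) and NKT17 exceeded NKT1 by 45.9 (12.3 to 385). Between WT NKT17 and NKT2 cells it was lower in NKT17 (-3.22 on the log2 scale, SE 0.35, edgeR adjusted p 6.78e-07). In SKG cells NKT2 was again the highest, and NKT1 was lower than NKT2 by -2.88 (SE 0.32) and lower than NKT17 by -1.03 (SE 0.31). Both differences contain SKG NKT1 values that were known when the genes were picked, so they are given with no p. SKG NKT17 was below SKG NKT2 by -1.84 (SE 0.30, edgeR adjusted p 0.000100). The order NKT2, NKT17, NKT1 held in both genotypes.

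**Figure D5:**
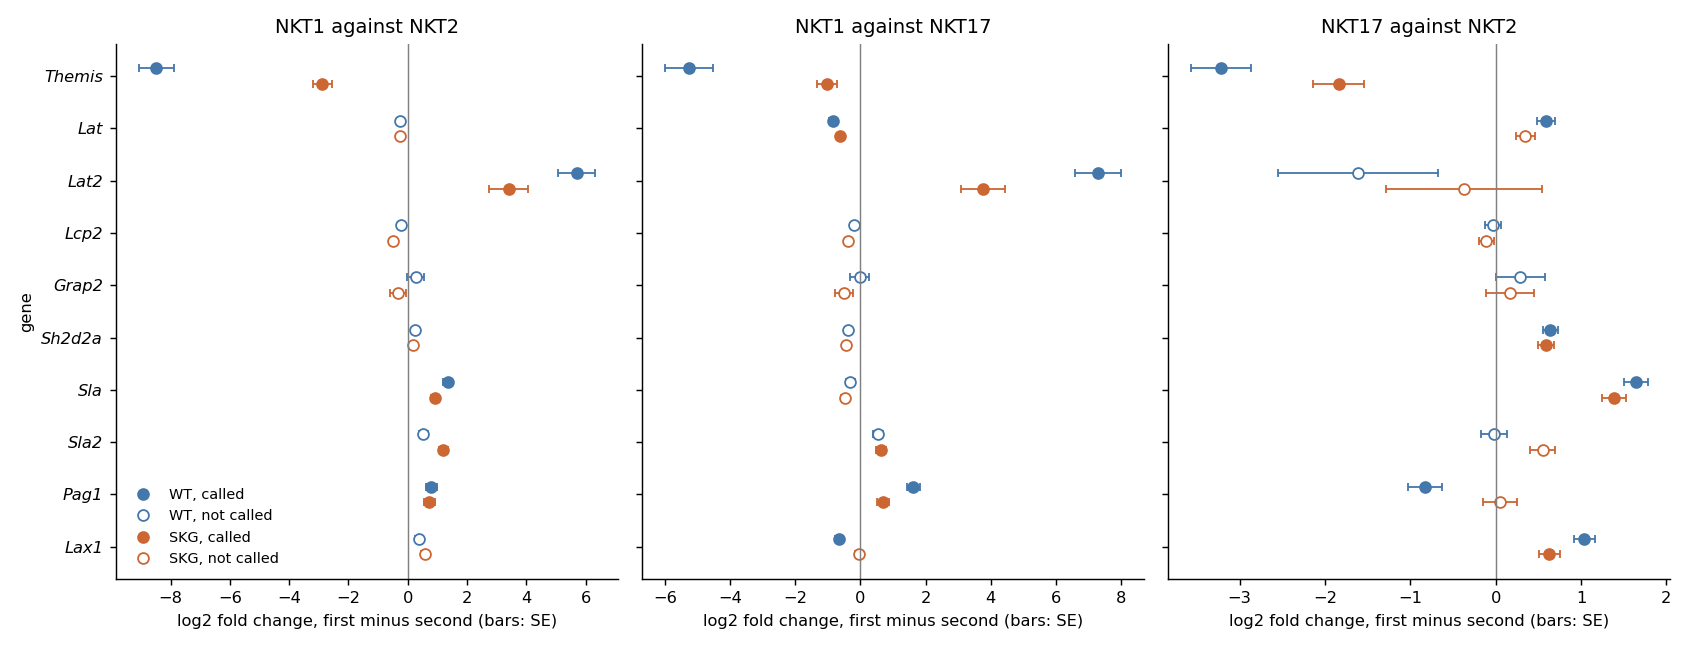
Log2 fold change between subsets for each adaptor gene (rows), first subset minus second, with standard errors, in WT (blue) and SKG (orange) cells. Filled points were called, and the 3 panels have their own axes. Themis is left of 0 in all panels, and Sla is right of 0 against NKT2 in both panels that hold NKT2.

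Lat2 and Pag1 were highest in NKT1 cells. In WT cells Lat2 in NKT1 exceeded NKT2 by a pooled ratio of 57.8 (exact 95% counting interval 32.9 to 112) and NKT17 by 187 (72.9 to 689), and in SKG cells the ratios were 11.2 (5.44 to 26.7) and 14.6 (6.80 to 37.4). These intervals leave out the spread between libraries, which for Lat2 in WT NKT1 ran from 24.3 to 61.0 CPM. Pag1 was at 67.4 ± 20.0 CPM in WT NKT1, 38.9 ± 5.82 in NKT2 and 21.9 ± 3.75 in NKT17, and the difference between NKT1 and NKT2 (log2 fold change 0.79, SE 0.19) was too small for a call once WT NKT1 replicate 1 was left out (0.55). In SKG cells Pag1 was at 58.8 ± 3.01, 35.4 ± 3.45 and 36.5 ± 2.89 CPM, higher in NKT1 than in NKT2 (0.73, SE 0.19, edgeR adjusted p 0.00832) and NKT17 (0.69, SE 0.19, edgeR adjusted p 0.0101). NKT17 was under NKT2 in WT cells (-0.83, SE 0.20, with no p since the WT values were known), whereas in SKG cells the 2 subsets overlapped.

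Sla marked off NKT2 cells, which held less of it than the other subsets in both genotypes. In WT cells it was at 449, 409 and 417 CPM in NKT1, 174, 147 and 183 in NKT2 and 564, 483 and 532 in NKT17. On the log2 scale NKT1 exceeded NKT2 by 1.34 (SE 0.14, edgeR adjusted p 6.01e-08) and NKT17 exceeded NKT2 by 1.64 (SE 0.14, edgeR adjusted p 3.24e-09). The same held in SKG cells, at 0.92 (SE 0.13, edgeR adjusted p 1.72e-05) and 1.39 (SE 0.14, edgeR adjusted p 5.49e-08). Between SKG NKT1 and NKT17 cells the difference of -0.47 (SE 0.13, edgeR adjusted p 0.01) was not called, but was without SKG NKT17 replicate 2 (-0.59).

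Sla2 was called between subsets only in SKG cells, where NKT1 exceeded NKT2 by 1.20 (SE 0.15, edgeR adjusted p 2.09e-06) and NKT17 by 0.64 (SE 0.15, edgeR adjusted p 0.00200). The second of these was lost without SKG NKT17 replicate 2 (0.52). In WT cells NKT1 exceeded NKT2 by 0.52 (SE 0.15, edgeR adjusted p 0.00907) and NKT17 by 0.54 (SE 0.15, edgeR adjusted p 0.00721), both under the fold change minimum. The first was called without WT NKT2 replicate 1 (0.65) or WT NKT1 replicate 3 (0.59), and the second without WT NKT17 replicate 1 (0.66), WT NKT1 replicate 2 (0.59) or WT NKT1 replicate 3 (0.61). Between SKG NKT17 and NKT2 cells the value of 0.55 (SE 0.15, edgeR adjusted p 0.00861) was likewise called without SKG NKT17 replicate 2 (0.67) or SKG NKT2 replicate 3 (0.60).

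Lax1, Lat and Sh2d2a had their highest mean in NKT17 cells of each genotype. Lax1 in WT NKT17 exceeded NKT2 by 1.04 (SE 0.12, edgeR adjusted p 7.18e-07) and NKT1 was below NKT17 by -0.67 (SE 0.12, edgeR adjusted p 0.000147), while in SKG cells NKT1 and NKT17 overlapped (-0.05, SE 0.12, edgeR adjusted p 0.808). SKG NKT17 still exceeded SKG NKT2 (0.63, SE 0.12, edgeR adjusted p 0.000477), a call lost without SKG NKT17 replicate 1 (0.58) or SKG NKT2 replicate 2 (0.53). SKG NKT1 exceeded SKG NKT2 by 0.57 (SE 0.12, edgeR adjusted p 0.00124), which was called without SKG NKT1 replicate 1 (0.59), SKG NKT1 replicate 2 (0.65) or SKG NKT2 replicate 1 (0.66).

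Lat in NKT1 was below NKT17 in WT (-0.85, SE 0.11, edgeR adjusted p 1.17e-06) and SKG cells (-0.62, SE 0.11, edgeR adjusted p 9.18e-05). The SKG call was lost without SKG NKT1 replicate 2 (-0.58) or SKG NKT17 replicate 3 (-0.55). WT NKT17 exceeded WT NKT2 by 0.59 (SE 0.11, edgeR adjusted p 0.000178), just past the fold change minimum, and fell under it with DESeq2 (0.58), upper-quartile scaling (0.54), no filter (0.58), without WT NKT2 replicate 1 (0.54) and without WT NKT17 replicate 2 (0.47). Sh2d2a was higher in NKT17 than in NKT2 cells, by 0.64 in WT (SE 0.09, edgeR adjusted p 1.08e-05) and 0.59 in SKG (SE 0.09, edgeR adjusted p 3.00e-05). The WT call was lost under upper-quartile scaling (0.58). The SKG call was lost in 7 of 11 alternatives, 3 of which left out SKG NKT17 replicate 1 (0.57), SKG NKT2 replicate 2 (0.55) or SKG NKT17 replicate 3 (0.56). Lcp2 and Grap2 were called between no subsets.

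Of the 10 members, 6 had a promoter window in the RefSeq table for GRCm38.p6 (250 bases before to 50 after the start of a transcript). The windows of Themis, Lat and Grap2, which had the higher mean in SKG in all 3 subsets, and of Sla2 and Lax1, which had the lower mean in all 3, are given to show the sequence around the start of members that lay on the same side of WT throughout. Capitals mark matches on either strand to the NFAT core GGAAA, the RUNX motif TGTGGT, the AP-1 motif TGANTCA or the TCF/LEF core CTTTGA. The windows lie at chr10:28668110-28668409 on the plus strand for Themis, chr7:126369519-126369818 on the minus strand for Lat, chr15:80623233-80623532 on the plus strand for Grap2, chr2:156887172-156887471 on the minus strand for Sla2 and chr1:133690059-133690358 on the minus strand for Lax1, and each is written 5′ to 3′ along its gene.
Themis: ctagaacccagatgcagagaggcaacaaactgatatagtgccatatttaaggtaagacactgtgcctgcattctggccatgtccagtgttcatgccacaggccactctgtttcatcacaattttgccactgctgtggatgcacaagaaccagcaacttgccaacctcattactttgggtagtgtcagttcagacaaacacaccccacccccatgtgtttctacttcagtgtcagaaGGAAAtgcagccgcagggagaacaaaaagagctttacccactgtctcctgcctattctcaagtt
Lat: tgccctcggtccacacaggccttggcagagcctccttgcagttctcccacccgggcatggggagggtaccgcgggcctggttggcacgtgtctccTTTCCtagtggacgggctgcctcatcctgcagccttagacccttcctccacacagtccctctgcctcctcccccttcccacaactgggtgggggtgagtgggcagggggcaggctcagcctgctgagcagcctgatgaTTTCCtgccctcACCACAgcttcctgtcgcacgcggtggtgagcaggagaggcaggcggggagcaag
Grap2: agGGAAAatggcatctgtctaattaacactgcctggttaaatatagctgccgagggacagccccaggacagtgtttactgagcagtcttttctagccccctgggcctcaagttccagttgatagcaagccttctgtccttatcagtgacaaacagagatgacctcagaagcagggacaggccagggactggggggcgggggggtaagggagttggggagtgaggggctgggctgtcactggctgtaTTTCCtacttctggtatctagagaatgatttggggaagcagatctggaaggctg
Sla2: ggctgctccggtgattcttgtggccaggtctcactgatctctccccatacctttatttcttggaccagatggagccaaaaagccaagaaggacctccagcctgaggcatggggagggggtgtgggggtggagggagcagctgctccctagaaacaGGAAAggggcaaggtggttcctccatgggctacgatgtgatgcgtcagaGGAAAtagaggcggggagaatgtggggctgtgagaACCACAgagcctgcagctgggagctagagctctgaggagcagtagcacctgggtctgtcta
Lax1: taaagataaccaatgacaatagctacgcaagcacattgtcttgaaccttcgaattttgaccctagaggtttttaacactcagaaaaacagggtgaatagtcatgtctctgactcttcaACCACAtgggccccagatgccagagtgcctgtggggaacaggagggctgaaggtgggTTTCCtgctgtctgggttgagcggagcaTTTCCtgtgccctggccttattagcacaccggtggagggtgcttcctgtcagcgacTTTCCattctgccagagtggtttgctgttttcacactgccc

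The NFAT core was found 1 time in the Themis window, 2 times in the windows of Lat, Grap2 and Sla2 and 3 times in that of Lax1, and 61.3% of all 32851 windows hold it. The RUNX motif occurred 1 time each in the Lat, Sla2 and Lax1 windows and not in those of Themis and Grap2 (16.8% of all windows). Neither the AP-1 motif (7.81% of all windows) nor the TCF/LEF core (16.0%) was found in these 5 windows. Themis and Lax1 have 2 windows each in the table, of which the first is shown, and the second window of Lax1 holds the NFAT core 4 times. The letters searched are short, and a match describes the sequence only. In the NCBIM37 annotation, the build that the study's methods name as mm9, Themis lies on chromosome 10 from 28388166 to 28603624, Lat on chromosome 7 from 133507346 to 133513057, Sla2 on chromosome 2 from 156698193 to 156712928 and Lax1 on chromosome 1 from 135575606 to 135586685. In the same annotation Grap2 lies on chromosome 15 from 80453935 to 80480989. Of the members without a sequence here, Lcp2 lies on chromosome 11 from 33946920 to 33992295, Sla on chromosome 15 from 66612381 to 66663391, Lat2 on chromosome 5 from 135076138 to 135090893, and Sh2d2a and Pag1 on chromosome 3, from 87650677 to 87659644 and from 9687479 to 9833679.

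Over the 18 libraries the 45 pairs of members were split between 21 positive and 24 negative correlations of log2 CPM, with a median Pearson r of -0.03. These values describe libraries that fall into 6 groups, so a pair can correlate through the subsets alone. The closest pair was Sh2d2a and Lax1 (r = 0.88), followed by Lat2 and Pag1 (r = 0.81), and the most opposed were Lcp2 and Sla2 (r = -0.85) and Themis and Sla2 (r = -0.78). Among all tested genes, the one whose pattern was most like that of Lax1 was Zap70 (r = 0.959), the gene that carries the SKG mutation. The genes closest to Themis were Als2cl (r = 0.893), Nfix (r = 0.893) and E130306D19Rik (r = 0.884), and those closest to Lat2 were Car2 (r = 0.968), Serpinb9b (r = 0.956) and the natural killer receptor gene Klra7 (r = 0.953). Lat was closest to Stx1a (r = 0.941), Sla to Amica1 (r = 0.970), Sla2 to Carhsp1 (r = 0.934), Pag1 to Amz1 (r = 0.933) and Sh2d2a to Ikzf3 (r = 0.953).

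Of 28 further TCR adaptor genes, 24 were tested. In SKG against WT, 1 was called higher and 0 lower in NKT1, 4 higher and 1 lower in NKT2, and 4 higher and 1 lower in NKT17 cells, with 3.27%, 7.95% and 8.37% of all genes called. The list's medians were 0.16, 0.36 and 0.21, and nothing particular to the list is read from these counts. Trat1, which encodes the receptor-associated adaptor TRIM, was called higher in all 3 subsets, at 97.7 ± 5.84 against 49.0 ± 8.45 CPM in NKT1 (log2 fold change 1.00 with SE 0.22, edgeR adjusted p 0.0124), 111 ± 16.0 against 17.7 ± 3.55 in NKT2 (2.64, SE 0.24, edgeR adjusted p 7.64e-08) and 34.3 ± 8.83 against 6.64 ± 3.08 in NKT17 (2.39, SE 0.26, edgeR adjusted p 1.29e-06). Sh3bp2, an adaptor that binds kinases and phospholipase C, was lower in SKG NKT2 (-1.37, SE 0.26, edgeR adjusted p 0.00127) and SKG NKT17 cells (-1.34, SE 0.31, edgeR adjusted p 0.00662). The others called, all higher in SKG, were Grap and Sit1 in NKT2 and NKT17 cells, Gab3 in NKT2 cells and Clnk in NKT17 cells; Grap and Sit1 are named after their values were seen.

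Of 14 genes for the receptor complex and its proximal kinases, 1 (Tec), 1 (Cd247) and 3 (Cd247, Cd5 and Cd6) were called lower in SKG in NKT1, NKT2 and NKT17 cells, beside the same shares of all genes (3.27%, 7.95% and 8.37%). Cd247, which encodes the ζ chain to which ZAP70 binds, was at 1652 ± 308 CPM in WT and 972 ± 110.5 in SKG NKT2 (-0.77, SE 0.12, edgeR adjusted p 0.000213) and at 854 ± 118 and 447 ± 27.5 in NKT17 (-0.93, SE 0.12, edgeR adjusted p 2.17e-05). Cd5, a negative regulator whose level follows TCR signals, was at 244 ± 15.4 CPM in WT and 91.4 ± 11.0 in SKG NKT17 (-1.42, SE 0.18, edgeR adjusted p 2.76e-05). A list of 13 genes for proteins that bind adaptors or work downstream of them was also read. Of these, 1 was called higher in SKG NKT1 and 2 (Rasgrp1 and Sos1) in SKG NKT2 cells. In SKG NKT17 cells 1 was called lower, beside the same shares. Nothing particular to either list is read from these counts. Rasgrp1, a Ras activator, was higher in SKG NKT1 (0.61, SE 0.17, edgeR adjusted p 0.0535) and NKT2 cells (1.09, SE 0.17, edgeR adjusted p 0.000213), and Ptpn6, which encodes the phosphatase SHP-1 that Themis binds, was lower in SKG NKT17 cells (-0.64, SE 0.16, edgeR adjusted p 0.0175).

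Between WT subsets, the further adaptors were called in 10 of 24 cases between NKT1 and NKT2 (8 higher in NKT1; 27.5% of all genes called), in 12 between NKT1 and NKT17 (9 higher in NKT1; 24.7%) and in 10 between NKT17 and NKT2 (6 higher in NKT17; 20.0%). Gab3, a docking adaptor, was at 89.0 ± 12.5 CPM in WT NKT1, 86.7 ± 24.5 in NKT17 and 14.4 ± 1.85 in NKT2. Clnk, a relative of SLP-76, was at 40.4 ± 5.14 CPM in WT NKT1 and 12.3 ± 6.11 in WT NKT17 and had no read in WT NKT2. Cd247 went the other way, with 307 ± 18.1 CPM in WT NKT1 against 1652 ± 308 in WT NKT2 (log2 fold change -2.43 with SE 0.13, edgeR adjusted p 2.00e-12).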

How the data were processed

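RNA was captured by its poly-A tail from sorted cells and made into full-length cDNA libraries with Tn5 transposase (adapted from Smart-seq2), read as single-end reads. The authors aligned reads to mm9 with TopHat (1.4.1 per the labels and the methods), removed low-complexity reads and deposited raw read counts per gene from htseq-count (HTSeq 0.7.1 per the labels, which also list other builds). The study's methods name a different htseq-count version, run with the union option. The annotation and the strand setting are not given in the sources used here. In the deposited table, 2 count columns belong to no listed sample and were not used. Reads carry no molecular identifiers, so counting intervals cover counting error only and leave out the spread between libraries.

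Of 23337 genes, 15582 had a count and 11118 passed filterByExpr. TMM factors lay between 0.928 and 1.07, and the model was fitted with edgeR 4.0.16 (robust quasi-likelihood, R 4.3.3) over 6 groups of 3 libraries (biological coefficient of variation 21.1%, 12 residual degrees of freedom). The test was tried on simulated counts. The call needed an adjusted p (Benjamini-Hochberg) under 0.1 and a fold change of at least 1.5. Standard errors are the log2 fold change over the root of F. Ratios for groups with few reads are pooled, with exact 95% Clopper-Pearson intervals. Lengths are exon unions of the NCBIM37 annotation, and correlations used log2 CPM with a prior count of 2. The members and gene lists were chosen with earlier results of these data known, and 3 marker genes are not reported here. All 10 members were described in every comparison, up to 3 most correlated genes were named for a member, and up to 3 called genes with the largest change for a list, given a mean of at least 50 counts.

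The labels name 3 independent experiments but not the mice behind each library, so p-values measure the spread between these libraries. Replicates differed by more than counting noise (chi-square per degree of freedom 5.47 to 24.4). A token in the titles recurs across groups. Same-token libraries of WT NKT17 and NKT2 deviated together (r = 0.351, 0.239 and 0.219), so that the token was taken to pair them. The main p-values of that comparison, as of all others, come from the fit without the block. With the block 6 members were called there as well. The other comparisons did not reach r of 0.219, the lowest of these 3 values, in every pair or had fewer than 3. The token links all 3 subsets of a genotype in the same way. Between SKG subsets all same-token correlations were positive too (0.0514 to 0.214). Alternatives were DESeq2 1.42.0, upper-quartile scaling, no filter, only the libraries compared, a block for the token, and each replicate left out.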

Additional observations from a re-analysis of the deposited data

Results flagged for a closer look

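The interaction contrasts pick out 5 differences between subsets in the SKG change, by the call used throughout (edgeR quasi-likelihood, adjusted over all genes, with a fold change of at least 1.5). For Themis the change in NKT2 minus that in NKT1 cells was -5.61 (SE 0.79), and that in NKT17 minus NKT1 cells was -4.23 (SE 0.88). Both contain the NKT1 value that was known when the genes were picked and rest on 2 WT NKT1 reads, so they are descriptions with no p. SKG libraries were above WT in 3 of 3 subsets. For Sla2 the change in NKT2 minus NKT1 cells was -0.68 (SE 0.21, edgeR adjusted p 0.0927), with group means of 174 ± 30.2 and 87.9 ± 4.28 CPM in WT and SKG NKT2 against 249 ± 38.4 and 201 ± 12.7 in NKT1. For Pag1 the change in NKT17 minus NKT1 cells was 0.94 (SE 0.27, a description for the same reason, its WT values having been known), with 21.9 ± 3.75 and 36.5 ± 2.89 CPM in WT and SKG NKT17 against 67.4 ± 20.0 and 58.8 ± 3.01 in NKT1. For Lax1 the change in NKT17 minus NKT1 cells was -0.61 (SE 0.17, edgeR adjusted p 0.0571), with 689 ± 47.2 and 347 ± 32.0 CPM in NKT17 against 434 ± 50.1 and 335 ± 45.9 in NKT1. Leaving out 1 library lost the Sla2 call for 10 of 12 libraries, the Pag1 call for 8 of 12 and the Lax1 call for 4 of 12. No group had the 4 libraries needed for a test of single outlying libraries.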

How the results depend on the processing

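Of 53 member comparisons called in at least 1 fit, 41 were called as reported and 31 of these in every alternative; none changed direction. The counts of called members stayed within 1.5 times in 133 of 150 alternatives, and those of all genes in 147. In SKG against WT NKT2 cells the replicate block called 4 members in place of 2, adding Grap2 (0.93, edgeR adjusted p 0.0397) and Lax1 (-0.63, edgeR adjusted p 0.00187); in NKT17 cells it added Grap2 (0.76, edgeR adjusted p 0.0916), and it changed no other call of a member. In SKG against WT the same token was found in only 2 libraries of each genotype, so there it does not count as a pairing (same-token correlations outside WT NKT17 and NKT2 ran from -0.151 to 0.262). A further token occurred only in WT libraries and another only in SKG libraries, so for these the token and the genotype cannot be told apart. DESeq2 called 1 member in place of 0 in the SKG change between NKT17 and NKT2 cells. A fit of only the libraries compared called 199 genes in place of 364 in SKG against WT NKT1 cells, 179 of them shared. Leaving out 1 replicate gave 2 to 5 called members between SKG NKT17 and NKT2 cells, 1 to 2 for the SKG change in NKT2 against NKT1, 1 to 3 in NKT17 against NKT1 and 0 to 1 in NKT17 against NKT2; all genes called ranged from 296 to 552 and from 157 to 255 for the last 2. The causes were not tested. Depth limits Themis in WT NKT1 (2 reads) and Lat2 outside NKT1 (4 to 12 reads a group), and 3 libraries a group limit all tests.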
